A study of Mus musculus with 6 samples.

Results

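The genes described here are the activator E2F genes E2f1, E2f2 and E2f3, the repressor gene E2f6, the atypical E2F genes E2f7 and E2f8, and Tfdp1, which encodes the dimer partner DP1. Rows of the deposited table were taken by gene name, and all 7 names were found, each in 1 of 55487 rows. All 7 passed the filter on low values. Expression was measured by RNA-seq in YFP-positive cells sorted from the subventricular zone (SVZ), the stem cell niche beside the lateral ventricles of the adult mouse brain. TKO mice were Rb(F/F);p107(-/-);p130(F/F), with loxP-flanked (F) alleles at Rb and p130 that Cre deletes, and p107 lost on both chromosomes. THC mice were Rb(F/+);p107(+/-);p130(F/+), so the controls also lose 1 copy at each of these loci. Both genotypes carried a Cre recombinase inducible by tamoxifen and driven by Nestin regulatory sequence, and the R26;EYFP reporter, on a mixed C57BL/6;Sv/129 background. Mice of both genotypes were 6 to 10 weeks old when tamoxifen began, received 200 mg/kg by gavage each day for 5 days, and were sampled 10 days after the last dose. Tissue of several mice was pooled until a sample held no fewer than 200000 sorted cells. The p107 allele is germline, so its loss is not limited to the cells that express the Cre. There were 3 TKO and 3 THC samples, with replicate 1 of each genotype in a February batch and replicates 2 and 3 in a November batch.

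E2F proteins are transcription factors that bind the promoters of genes for DNA replication and cell division. E2F1, E2F2 and E2F3 activate these genes when they are released from the retinoblastoma proteins pRb, p107 and p130, which the genes Rb1, Rbl1 and Rbl2 encode, and they bind DNA together with a DP protein. E2F6 represses without binding retinoblastoma proteins, mostly through a Polycomb complex, and E2F7 and E2F8 bind DNA without a DP protein and repress many of the genes that the activators switch on. Several E2F genes are themselves known E2F targets. In the SVZ, stem cells leave and re-enter the cell cycle, and the retinoblastoma proteins are known to restrain that step.

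Promoter sequences are shown for 4 of the 5 genes whose windows hold E2F-like letters, namely both atypical repressors, for their rise in TKO, and E2f2 and E2f3, as activators to set beside them. They are RefSeq sequences of GRCm38.p6, 300 bases long, read 5′ to 3′ on the strand of the gene, from 250 bases before to 50 bases after an annotated start. Capitals mark matches, on either strand, to TTTCCCGC, TTTGGCGC, TTTCGCGC or TTTGCCGC, or to the 7-letter forms of these that lack the first T. Each 8-letter match contains a 7-letter match. The windows are chr7:48881547-48881846 (minus strand) for E2f8, chr10:110745189-110745488 (plus strand) for E2f7, chr4:136172024-136172323 (plus strand) for E2f2 and chr13:29986014-29986313 (minus strand) for E2f3.
E2f8: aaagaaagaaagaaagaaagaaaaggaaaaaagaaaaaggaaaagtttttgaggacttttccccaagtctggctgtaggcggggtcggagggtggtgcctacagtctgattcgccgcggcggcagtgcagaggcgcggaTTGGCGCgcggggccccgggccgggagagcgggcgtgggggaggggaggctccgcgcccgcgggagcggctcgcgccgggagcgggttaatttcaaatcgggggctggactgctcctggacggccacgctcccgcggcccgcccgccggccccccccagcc
E2f7: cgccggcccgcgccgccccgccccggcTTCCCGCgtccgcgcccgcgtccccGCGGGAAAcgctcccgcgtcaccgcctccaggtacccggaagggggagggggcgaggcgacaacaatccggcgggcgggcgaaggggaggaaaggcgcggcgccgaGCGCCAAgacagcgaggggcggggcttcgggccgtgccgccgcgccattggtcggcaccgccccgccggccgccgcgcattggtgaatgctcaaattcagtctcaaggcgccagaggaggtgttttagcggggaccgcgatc
E2f2: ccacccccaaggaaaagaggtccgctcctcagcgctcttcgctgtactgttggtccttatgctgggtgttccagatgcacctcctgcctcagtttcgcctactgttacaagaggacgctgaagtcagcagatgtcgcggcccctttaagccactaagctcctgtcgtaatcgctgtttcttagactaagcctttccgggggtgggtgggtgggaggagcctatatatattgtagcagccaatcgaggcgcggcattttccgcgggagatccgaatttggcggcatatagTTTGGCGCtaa
E2f3: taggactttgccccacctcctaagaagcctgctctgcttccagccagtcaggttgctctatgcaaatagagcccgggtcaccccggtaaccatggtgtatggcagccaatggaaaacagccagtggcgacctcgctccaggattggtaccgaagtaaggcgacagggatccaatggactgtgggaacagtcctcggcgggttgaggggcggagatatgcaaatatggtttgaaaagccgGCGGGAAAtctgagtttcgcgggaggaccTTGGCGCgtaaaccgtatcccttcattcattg

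The E2f7 window held 3 seven-letter matches, 1 of them inside an 8-letter match that began 198 bases before the start. The E2f8 window held 1 seven-letter match, 111 bases before the start, and no 8-letter match. The E2f3 window, which is the more upstream of its 2 RefSeq starts, held an 8-letter match that began 11 bases before the start and another 7-letter match after it. In the E2f2 window, the first of 2 and the one with a match, the 8-letter match lay 39 bases after the RefSeq start. That start is at -120 bases from the first start of the GENCODE annotation, so the match lies before the GENCODE start. A single 8-letter match was also found for Tfdp1, and it lies in both of that gene's overlapping windows. No match was found for E2f6, or for E2f1, whose RefSeq window starts from a position 466 bases inside the first start of the GENCODE annotation. An 8-letter match was present for 4 of the 7 genes, against 2.60% of 27025 genes with windows, and a 7-letter match for 5 of 7, against 10.9%. The cell-cycle element CHR (TTTGAA, either strand) was found for 3 of 7 genes against 20.2%, and CCAAT for 4 of 7 against 41.1%. Promoters of these 7 genes were 54.7 to 80.7% G and C. Letter matches describe these windows and are not shown to be bound sites.

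Libraries held 15536084 to 16961817 reads in genes, with 16858 to 17513 genes at a normalized count of 10 or more. Log2 changes given below are TKO minus THC on the log2(normalized count + 1) scale, from limma with batch as a covariate and Benjamini-Hochberg adjustment over 17278 genes. Genes were called at an adjusted p under 0.05, which held for 27.9% of genes (14.3% higher, 13.6% lower), with a median log2 change over all genes of -0.0003. Rbl1, which encodes p107, was at 42.0, 18.3 and 14.5 in TKO and at 520.2, 497 and 646 in THC (log2 change -4.56, SE 0.31, adjusted p = 2.3e-06), so all 6 libraries match their p107 genotype. Rb1 was at 3267 ± 355 in TKO and 1849 ± 199 in THC, and Rbl2 at 939.5 ± 32.9 in TKO and 1042 ± 202 in THC (SD, n = 3 each). For Rb1 and Rbl2 the counts are no check on recombination, as they cover whole genes and the labels do not say which exons are floxed.

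All 7 genes were higher in TKO at an adjusted p under 0.05, against 14.3% of the genes tested, and none was lower. For 6 of them every TKO sample lay above every THC sample, which held for 19.4% of genes. The atypical repressors rose most, 5.06-fold for E2f8 and 4.01-fold for E2f7. E2f1 rose 2.95-fold and E2f2 rose 2.84-fold, whereas the estimates for Tfdp1, E2f3 and E2f6 lay between 1.42-fold and 1.59-fold. A called rise of at least 1 on the log2 scale was seen for 4 of the 7, against 7.37% of genes, and one of at least 2 for 2 of the 7, against 2.16%. In bulk samples, more cells that transcribe a gene and more RNA of that gene per cell cannot be told apart.

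**Figure D1:**
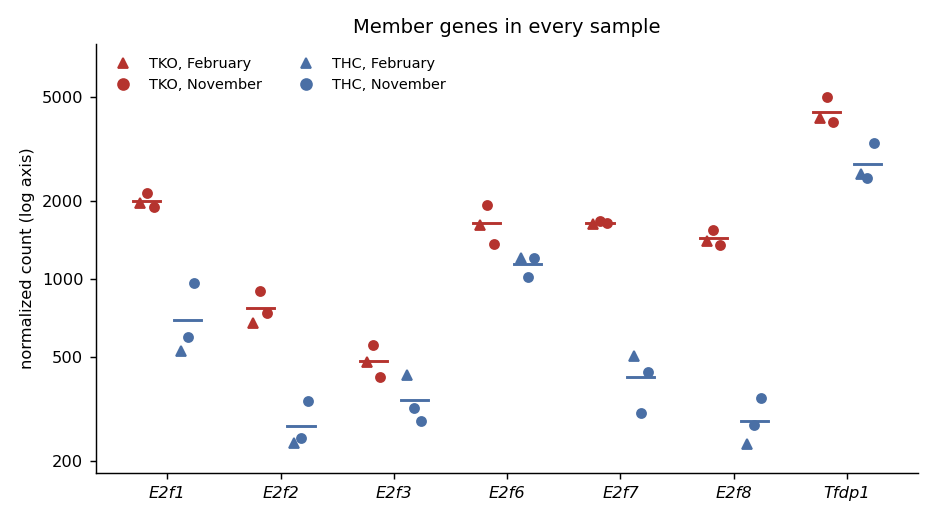
Normalized count (log axis) of each member gene in every sample, TKO in red on the left of THC in blue, with triangles for the February batch, circles for the November batch and a line at the mean of each genotype. The E2f8 and E2f7 values of TKO all lie at 1352 or above and those of THC at 508 or below, while the E2f3 values of the genotypes overlap.

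E2f8 (chromosome 7, 48866429 to 48881596, GRCm38, whole gene span) encodes an atypical E2F that represses cell-cycle genes. Its normalized count was 1403, 1544 and 1352 in TKO samples 1 to 3, and 233, 275 and 350.4 in THC samples 1 to 3. The lowest TKO sample stood well above the highest THC sample, THC 3. Its mean was 1433 ± 99.5 in TKO and 286 ± 59.7 in THC (SD, n = 3 each), a log2 change of 2.34 (SE 0.15, adjusted p = 1.8e-06). Within batches, the difference was 2.59 in February, where there is 1 sample of each genotype and no test, and 2.22 in November. Strand is not kept by this library chemistry, and reads of an overlapping gene on the other strand cannot be told apart. Gm2788, which shares 3639 bases of span with E2f8 on the other strand, was at 75.1, 80.6 and 78.2 in TKO and at 2.00, 7.55 and 13.1 in THC (log2 change 3.47, adjusted p = 0.00022). Its level was far below that of E2f8 in every sample, and its part in the E2f8 count was not tested.

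E2f7 (chromosome 10, 110745439 to 110787384) encodes the other atypical repressor, which can pair with E2F8. Normalized counts of E2f7 were 1631, 1672 and 1636 in TKO, and 508, 307 and 441 in THC. TKO samples were nearly alike, and the spread lay among the THC samples, of which THC 1 was the highest. Means were 1646 ± 22.5 in TKO and 419 ± 103 in THC (SD, n = 3 each), and the log2 change was 2.00 (SE 0.16, adjusted p = 5.5e-06). The November difference was 2.16 and the February difference 1.68. Its antisense neighbour 1700020G17Rik did not exceed 7.55 in any sample.

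E2f1 (chromosome 2, 154559407 to 154569892) encodes the activator best known for driving both S-phase entry and, when in excess, apoptosis. Its normalized count was 1959.7, 2137 and 1891 in TKO, and 529, 597 and 968 in THC. Groups did not overlap, and THC 3 stood above the other two THC samples. Means were 1996 ± 127 in TKO and 698 ± 237 in THC (SD, n = 3 each), and the log2 change was 1.56 (SE 0.18, adjusted p = 5.7e-05). It was 1.89 in February and 1.40 in November.

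E2f2 (chromosome 4, 136172394 to 136196057) encodes an activator with much the same structure as E2F1. Samples had normalized counts of 675, 903 and 738 in TKO, and 235, 246 and 339 in THC. Groups were again separate, with THC 3 the highest THC sample. Means were 772 ± 117 in TKO and 273 ± 57.6 in THC (SD, n = 3 each), a log2 change of 1.50 (SE 0.17, adjusted p = 4.3e-05). February and November gave nearly the same difference, 1.52 and 1.50.

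E2f3 (chromosome 13, 29906575 to 29986063) encodes an activator made from 2 starts as E2F3a and E2F3b, which counts per gene do not separate. Its normalized count was 478, 556 and 422 in TKO, and 428, 319 and 285 in THC. The groups overlapped, since THC 1 lay above TKO 3. Means were 485 ± 67.1 in TKO and 344 ± 74.8 in THC (SD, n = 3 each). The log2 change of 0.51 (SE 0.18, adjusted p = 0.0498) was at the edge of the threshold. It was 0.16 in February and 0.68 in November, and the call was lost without TKO 2 (adjusted p = 0.245), TKO 3 (0.084), THC 2 (0.0977) or THC 3 (0.158), in 4 of the 6 fits that leave out 1 sample. Antisense Gm11365 did not exceed 6.61.

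E2f6 (chromosome 12, 16810963 to 16839742) encodes a repressor that lacks the part of the protein through which other E2Fs bind retinoblastoma proteins. Its normalized count was 1609, 1931 and 1365 in TKO, and 1209, 1015 and 1201 in THC. All TKO samples lay above all THC samples, by a small margin for TKO 3. Means were 1635 ± 284 in TKO and 1142 ± 109.5 in THC (SD, n = 3 each), and the fitted difference was 0.51 on the log2 scale (SE 0.15, adjusted p = 0.024). It was 0.41 in February and 0.56 in November, and the call was lost without TKO 2 (adjusted p = 0.129) or THC 2 (0.0883).

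Tfdp1 (chromosome 8, 13338751 to 13378448) encodes DP1, the partner with which E2F1 to E2F6 bind DNA. Samples had normalized counts of 4142, 5024 and 4029 in TKO, and 2537, 2454 and 3318 in THC. Groups were separate, and THC 3 was the highest THC sample. Means were 4399 ± 545 in TKO and 2769.6 ± 476 in THC (SD, n = 3 each), and the log2 change was 0.67 (SE 0.15, adjusted p = 0.0049). The February difference was 0.71 and the November difference 0.66.

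Of the rest of the family, E2f5, a repressor that works with p130 and p107, and Tfdp2, which encodes the other partner DP2, also rose. E2f5 was at 1213, 1352 and 1267 in TKO and at 832, 786 and 840.2 in THC (log2 change 0.64, SE 0.12, adjusted p = 0.0021). Tfdp2 rose by 0.64 (SE 0.14, adjusted p = 0.0039). E2f4, the most abundant E2F protein of many resting cells, was at 838, 924 and 761 in TKO and at 781, 807 and 787 in THC, and its groups overlapped (log2 change 0.08, SE 0.13, adjusted p = 0.69). In the authors' deposited table, which holds their own fit, the log2 changes of the 7 member genes ran from 0.51 for E2f3 (adjusted p = 0.0494) to 2.34 for E2f8 (adjusted p = 2.53e-38).

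**Figure D2:**
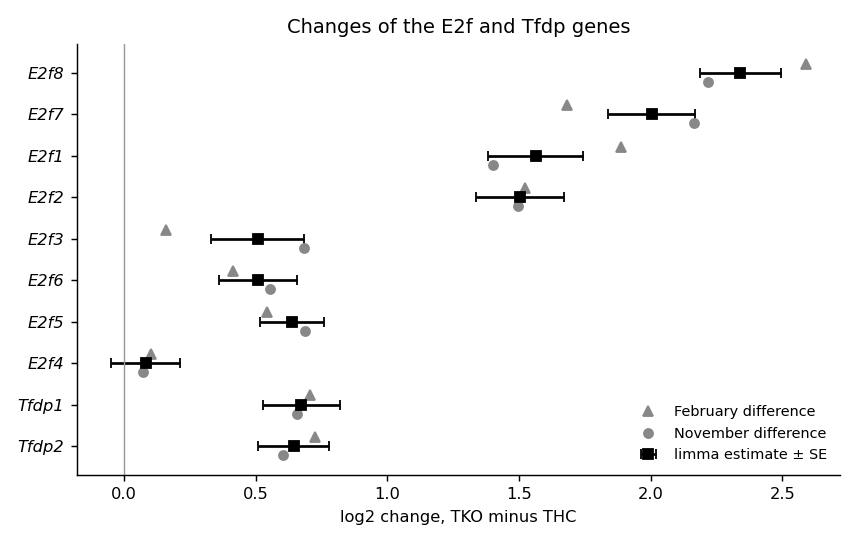
Log2 change, TKO minus THC, of the 8 E2f and 2 Tfdp genes, with squares for the limma estimate ± SE, triangles for the difference within February (1 sample of each genotype) and circles for the difference within November. E2f8 and E2f7 lie furthest right at 2.34 and 2.00, and E2f4 lies nearest to 0 at 0.08.

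Levels were next compared between genes per length, as normalized counts per kb of annotated exon. In TKO the order of the 8 E2f genes by mean, from high to low, was E2f5, E2f1, E2f4, E2f6, E2f8, E2f7, E2f2 and E2f3. In THC it was E2f5, E2f4, E2f1, E2f6, E2f3, E2f2, E2f8 and E2f7. By mean, the atypical genes were thus last in THC, at 52.5 ± 11.0 per kb for E2f8 and 46.5 ± 11.4 for E2f7. They were not the last pair in any single THC sample. In THC 1, E2f7 (56.4) lay above E2f2 (48.0), and in THC 2, E2f8 (50.49) lay just above E2f2 (50.29). In THC 3, E2f8 (64.4) lay above E2f3 (52.5). In TKO they were at 263 ± 18.3 per kb for E2f8 and 183 ± 2.50 for E2f7. Neighbours in the TKO order whose sample values overlapped were E2f4 and E2f6, E2f6 and E2f8, and E2f7 and E2f2. In THC the values of E2f1 and E2f6 overlapped, as did those of E2f3 and E2f2, E2f2 and E2f8, and E2f8 and E2f7. E2f1 was at 633 ± 40.2 per kb in TKO and 221 ± 75.0 in THC, above the other activators in all 6 samples. Tfdp1 was above all 8 E2f genes, at 1199 ± 148 per kb in TKO and 755 ± 129.8 in THC. Exons of all annotated transcripts were joined, which understates the level of a gene whose long forms are little used.

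The make-up of the E2f pool differed between the genotypes. The summed level of the 8 E2f genes was 2594, 2911 and 2521 per kb in TKO, and 1393, 1332 and 1547 per kb in THC. E2f7 and E2f8 together made up 16.1 to 17.1% of that sum in TKO and 6.35 to 7.33% in THC. The 3 activators made up 32.7 to 33.1% in TKO and 21.2 to 27.7% in THC, a difference carried mainly by E2f1. E2f4 and E2f5 together made up 39.0 to 40.5% in TKO and 51.2 to 57.8% in THC, and E2f6 made up 9.56 to 11.7% in TKO and 13.5 to 15.3% in THC. The summed atypical level over the summed activator level was 0.518, 0.487 and 0.519 in TKO, and 0.336, 0.283 and 0.264 in THC. None of these shares overlapped between the genotypes, and no background of other genes was computed. The shares are parts of 1 sum, so a rise of some genes lowers the share of the others. E2f4, E2f5 and E2f6 were themselves not lower in TKO (log2 changes 0.08, 0.64 and 0.51). All these values are descriptions, with no test.

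**Figure D3:**
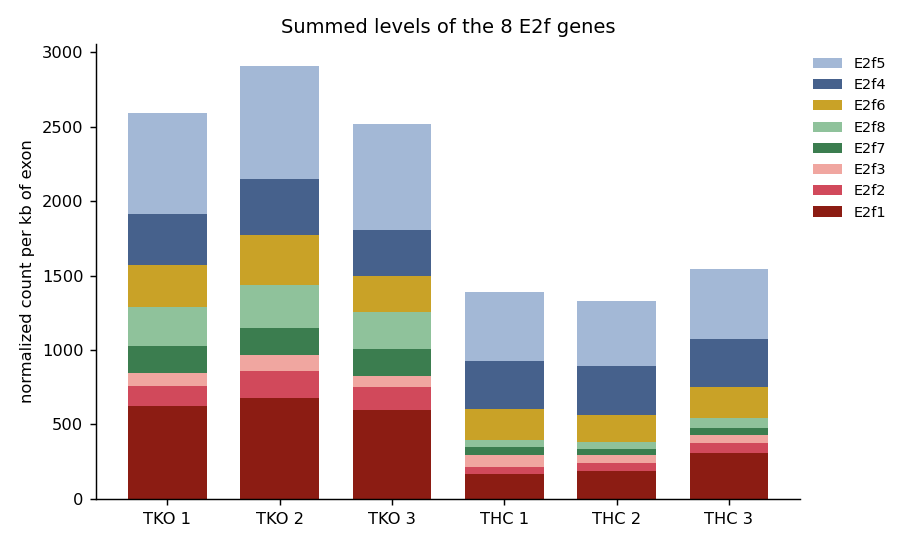
Summed level of the 8 E2f genes in normalized counts per kb of exon, stacked by gene, for the 3 TKO samples on the left and the 3 THC samples on the right. The whole bar reaches 2521 to 2911 in TKO and 1332 to 1547 in THC, and the green segments of E2f7 and E2f8 take 16.1 to 17.1% of it in TKO and 6.35 to 7.33% in THC.

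Differences between members were compared as the log2 ratio of their normalized counts within each sample, for all 21 pairs. With 3 samples against 3, the exact two-sided permutation test cannot go below p = 0.1, or 0.15 after adjustment over the 21 pairs, so no pair could reach 0.05. The TKO and THC ratios did not overlap for 14 pairs, all of which had this smallest p, and overlapped for 7. The pairs are built from the same 7 genes and are not independent, and no background of other gene pairs was computed. E2f8 set against E2f1 gave log2 ratios of -0.48, -0.47 and -0.48 in TKO, and -1.18, -1.12 and -1.46 in THC. E2f8 thus stood higher relative to E2f1 in every TKO sample, by 0.78 on average. For E2f7 over E2f1 the ratios were -0.26, -0.35 and -0.21 in TKO, and -0.06, -0.96 and -1.13 in THC. Those groups overlapped through THC 1 (difference 0.44, adjusted p = 0.467, exact permutation test). The difference was 0.77 without THC 1 and 0.23 without THC 3. E2f8 over E2f7 had overlapping groups and a difference of 0.34, which was 0.0434 without THC 1 and 0.53 without THC 2.

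Among the activators, E2f1 over E2f2 was 1.54, 1.24 and 1.36 in TKO and 1.17, 1.28 and 1.51 in THC, with overlapping groups and a difference of 0.06. E2f1 over E2f3 was 2.03, 1.94 and 2.16 in TKO and 0.31, 0.90 and 1.76 in THC. E2f3 therefore stood apart from E2f1, with a difference of 1.06 and no overlap, although THC 3 came close to the TKO samples. E2f6 stood in the same relation: the E2f1 over E2f6 ratio was 0.28, 0.15 and 0.47 in TKO and -1.19, -0.77 and -0.31 in THC. E2f8 over E2f6 differed most plainly among the pairs with E2f6, at -0.20, -0.32 and -0.01 in TKO and -2.37, -1.88 and -1.77 in THC, a difference of 1.83. E2f7 over E2f6 differed by 1.50, also without overlap. E2f3 over E2f6 had overlapping groups, with values from -1.80 to -1.69 in TKO and from -2.07 to -1.50 in THC.

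**Figure D4:**
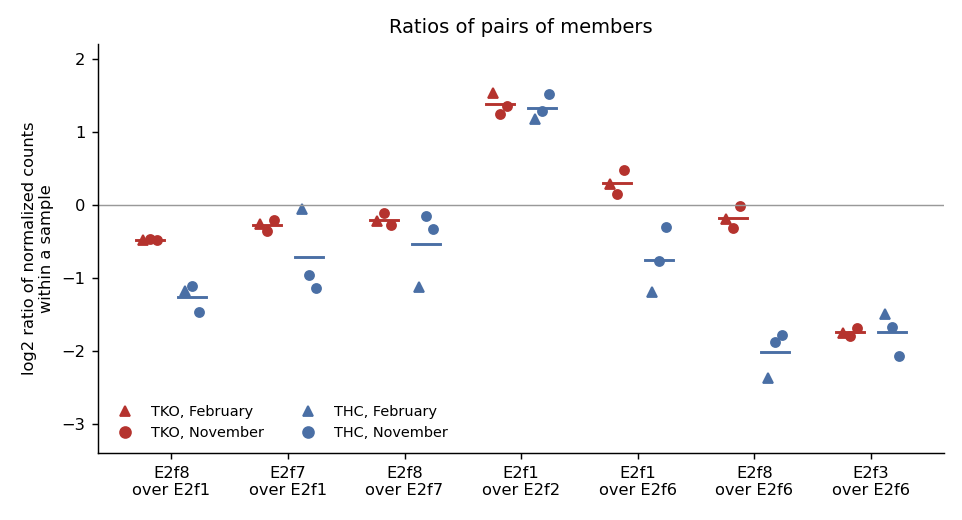
Log2 ratio of the normalized counts of 2 member genes within a sample for 7 of the 21 pairs, TKO in red on the left of THC in blue, with triangles for February, circles for November and a line at the mean of each genotype. E2f8 over E2f1 lies between -0.48 and -0.47 in TKO and between -1.46 and -1.12 in THC, while E2f1 over E2f2 and E2f3 over E2f6 overlap.

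Several markers moved along with the E2f genes, against a background of 14.3% of all genes called higher. Pcna, 1 of the proliferation markers, is also counted among the known E2F targets below, so these lists are not independent. All 6 proliferation markers rose, with log2 changes of 1.19 to 1.78, among them Mki67, the antigen Ki-67 of cycling cells (12076 ± 1717 in TKO, 3513 ± 579 in THC), and Aurkb, a mitotic kinase (4438 ± 502 in TKO, 1588 ± 380.5 in THC; SD, n = 3 each). THC 3 was the highest THC library for 6 of the 6 markers and for 4 of the 7 member genes. Each member was therefore also set against the mean log2 value of the 6 markers in the same sample, a measure chosen after the values were seen. E2f8 relative to these markers was at -2.60, -2.70 and -2.70 in TKO and at -3.64, -3.30 and -3.54 in THC. Groups did not overlap for E2f8, which was higher in TKO by 0.83. No background of other genes was computed for this measure. Over all genes, 2.16% had a called rise of at least 2 on the log2 scale, which also lies above that of every marker. E2f7 was higher by 0.49 with overlapping groups. For E2f1 and E2f2 the differences were 0.05 and -0.01 with overlapping groups (adjusted p = 0.90 each, exact permutation test over 7 genes). Tfdp1, E2f3 and E2f6 rose less than the markers did. Relative to the markers they were therefore lower in TKO, with differences of -0.84, -1.004 and -1.004 on the log2 scale, without overlap. A gene with no change would also be lower on this measure. The smallest exact permutation p for 3 against 3 samples is again 0.1, or 0.175 after adjustment over the 7 genes.

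Markers of cell types were counted next to these results. Over all genes, 14.3% were called higher and 13.6% lower. Of 9 neural stem and progenitor markers 3 were higher and 1 was lower. Nes, the gene of the progenitor filament nestin, was at 957 ± 89.8 in TKO and 413 ± 34.9 in THC, and Gfap, of stem cells and astrocytes, at 22226 ± 5928 in TKO and 5563 ± 1679 in THC. Dcx, of neuroblasts, was the lower one, at 2944 ± 392 in TKO and 4884 ± 551 in THC, and Slc1a3, a glial glutamate transporter, was at 74413 ± 8236 in TKO and 77066 ± 26327 in THC (adjusted p = 0.99). Summed normalized counts of the 9 markers were 101195 to 128005 in TKO and 70081 to 124809 in THC. Slc1a3 made up most of this sum in every sample, so the sum says little about the other markers. For 8 oligodendrocyte markers, 7 of them lower, the sums were 19133 to 32062 in TKO and 90286 to 103819 in THC. For 8 endothelial markers, 7 of them lower (2 with limma without trend, 6 to 8 with 1 sample left out), they were 2302 to 3311 in TKO and 5101 to 11773 in THC, where THC 2 was the highest. For 8 microglia markers they were 1340 to 6418 in TKO and 984 to 4354 in THC, with 3 called higher (0 without TKO 2, 1 without THC 3 and 5 without THC 2). The February sample had the highest microglia sum of each genotype, and the median log2 difference of this list was 0.69 in February and 1.06 in November. For 8 ependymal markers the sums were 4114 to 5340 in TKO and 3548 to 10395 in THC, with 1 called higher and 2 lower. Without TKO 1 or THC 1, 0 were higher and 4 lower, and without any single one of the other samples 1 was lower. Their median log2 difference was 0.88 in February and -0.71 in November, so these counts are no result about the list. No marker was at 0 in all samples, and the part of these shifts in the E2f results was not tested.

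Genes linked to the E2F proteins were then counted. Of 30 genes of replication and the G1/S step that are known E2F targets, all were tested, 28 were higher and 1 was lower, and their median log2 change was 1.44. The background for these counts is again 14.3% higher and 13.6% lower. Pole, a replicative DNA polymerase, was at 2718 ± 43.0 in TKO and 816 ± 80.2 in THC (log2 change 1.74, adjusted p = 2.2e-06). Uhrf1, which maintains DNA methylation, was at 4901 ± 225 in TKO and 1439.8 ± 317 in THC (log2 change 1.79, adjusted p = 4.4e-06). The lower gene was Rbl1, which is itself targeted by the genotype. Cdc25a, a phosphatase that activates cyclin-dependent kinases, was at 908 ± 50.7 in TKO and 757 ± 123.6 in THC and was not called (log2 change 0.27, adjusted p = 0.18).

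Genes that act on E2F proteins were also mostly higher. Of 8 genes for the destruction or inactivation of E2F proteins, 7 were higher and 1 was lower, with a median log2 change of 1.26. Over all genes 14.3% were higher and 13.6% lower. Cdk2 and Ccna2 encode the kinase and cyclin that release E2F1 from DNA. Cdk2 was at 2346 ± 88.5 in TKO and 953 ± 125 in THC (log2 change 1.31), and Ccna2 at 10234 ± 1047 in TKO and 3253 ± 1104 in THC (log2 change 1.70). Cdc20, an activator of the anaphase-promoting complex, rose by 1.67. The lower gene, named because it was the only one, was Btrc, a subunit of a ubiquitin ligase, at 856 ± 53.6 in TKO and 1225 ± 82.0 in THC (log2 change -0.52, adjusted p = 0.0092). Fzr1, the other activator of the anaphase-promoting complex, was the least certain, with a log2 change of 0.38 (adjusted p = 0.045), and its call was lost in 5 of the 6 fits that leave out 1 sample, all but the one without TKO 3. Ccna2 is also counted among the G1/S targets, so these lists are not independent.

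Of 13 apoptosis genes known as E2F1 targets, 12 were tested, 7 were higher and 2 were lower, with a median log2 change of 0.64. Over all genes 14.3% were higher and 13.6% lower, and limma without trend called 4 of the list higher. Cdkn2a was the one under the filter. Pmaip1, which encodes the BH3-only protein NOXA, was at 942, 654 and 725 in TKO and at 101, 139 and 78.8 in THC (log2 change 2.87, adjusted p = 4.1e-06). Bbc3, which encodes PUMA, rose by 1.61 (adjusted p = 0.0041), and Bcl2l11, which encodes BIM, rose by 0.87 (adjusted p = 0.001). All 3 are promoters of cell death that act on mitochondria. The lower genes, named for their small number, were Ppp1r13b and Trp53bp2, which encode the p53-binding proteins ASPP1 and ASPP2, with log2 changes of -0.66 and -0.64. Trp73, a p53 relative, was at 180, 129 and 166 in TKO and at 46.1, 201 and 234 in THC, and overlapped (adjusted p = 0.67).

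Subunits of PRC1.6, the Polycomb complex that contains E2F6, were counted next. Of 10 tested, 1 was higher and 1 was lower, with a median log2 change of 0.10. These shares are near those of all genes, 14.3% higher and 13.6% lower, so the counts are no result about the complex. Ring1, a ubiquitin ligase subunit, was at 250.4 ± 21.7 in TKO and 445 ± 62.2 in THC (log2 change -0.82, adjusted p = 0.0034). L3mbtl2, a chromatin-binding subunit, was at 779 ± 103 in TKO and 545 ± 97.2 in THC (log2 change 0.52, adjusted p = 0.035), and its call was lost without TKO 1, TKO 2, THC 1 or THC 2. Mga, which anchors the complex on DNA, was at 1273 ± 135 in TKO and 1257 ± 132 in THC, with a log2 change of 0.02 (adjusted p = 0.94). Wdr5 was not called either (log2 change 0.30, adjusted p = 0.16).

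Of 9 germline genes, which include the known E2F6 targets Stag3 and Smc1b, 5 passed the filter and 3 were called higher. Over all genes 14.3% were called higher. A gene that passed the filter only through its TKO level was bound to lie higher in TKO, called or not, so this count supports nothing. Stag3 and Smc1b passed it in both genotypes, with values of at least 10 in every sample. Stag3, a meiotic cohesin subunit, was at 722, 701 and 707 in TKO and at 238, 187 and 148 in THC (log2 change 1.91, adjusted p = 9.5e-06). Smc1b, another meiotic cohesin subunit, was at 157, 143 and 201 in TKO and at 11.0, 17.9 and 29.3 in THC (log2 change 3.13, adjusted p = 4.1e-05). For both genes every TKO sample lay above every THC sample. Tex11, a meiotic recombination gene, was low throughout, at 58.6, 24.7 and 57.9 in TKO and at 11.0, 7.55 and 2.02 in THC. Tdrkh, of the piRNA pathway, was at 1795 ± 278 in TKO and 1528 ± 269 in THC and was not called (adjusted p = 0.30).

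**Figure D5:**
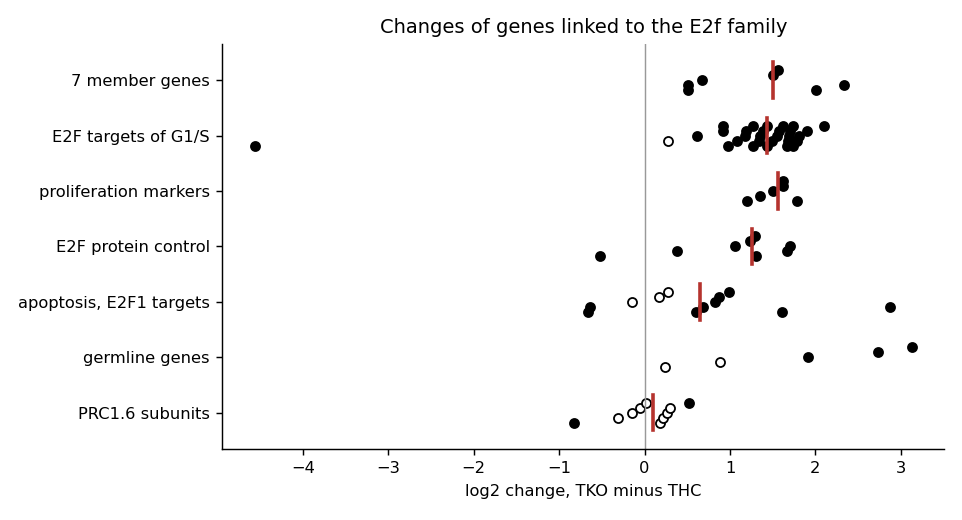
Log2 change, TKO minus THC, of the member genes and of genes linked to them by list, with filled points for genes called at an adjusted p under 0.05, open points for genes not called, and a red line at the median of each list except the germline genes. The E2F targets centre on 1.44 with Rbl1 alone at -4.56, and the PRC1.6 subunits centre on 0.10.

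For each member, the 3 genes nearest in pattern were found among 11364 genes, by the root mean square difference of log2 values centred on each gene's mean over the 6 samples. Small values mean a like profile over these libraries. With 6 samples of 2 genotypes, genes called in the same direction have much the same shape. The values are not scaled, so the size of the change also counts. Nearest to E2f1 were Cdc20 (0.0712), Pole2 and Tedc1, and nearest to E2f2 were Pimreg (0.0494), Aurkb and Ccne2. These genes rose by 1.49 to 1.69, and a change like that of E2f1 or E2f2 follows from how they were picked. Nearest to E2f7 were Tent5c (0.0983), Parpbp and Ncapg2. Nearest to E2f8 were Cyp39a1 (0.125), Tcf19 and Cdkn2c, the gene of the cyclin-dependent kinase inhibitor p18. Nearest to Tfdp1 were Hras (0.0228), Pold3 and Cdkn2aipnl, nearest to E2f6 were Rbm14 (0.0483), Dis3 and Zfp689, and nearest to E2f3 were Tmem121 (0.0192), Hnrnpl and Rap2b. Among the members themselves E2f1 and E2f2 were the nearest pair (0.135), followed by E2f6 and Tfdp1 (0.155) and E2f3 and E2f6 (0.174), and E2f3 and E2f8 were the furthest apart (0.979).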

How the data were processed

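RNA-seq was done on 3 TKO and 3 THC samples, which the series calls biological replicates, each a pool of several mice. RNA of quality number at least 8.0 was made into cDNA with SMART-Seq v4 and into libraries with Nextera XT, per the labels' protocols. HISAT2, featureCounts from Subread, DESeq2 and build GRCm38 are named per the submitters' processing notes; versions, annotation and the treatment of multi-mapping reads are not given in sources used here.

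The deposited table lists 55487 genes. Its sample columns are normalized counts, a signal that the authors scaled by a single factor for each library, beside their mean. Per the file headers, it also holds the authors' log2 fold change with its SE, a Wald statistic and a weight (each a score), a p-value and an adjusted p-value. Every deposited value was a whole multiple of 1 read (0.944 to 1.07 normalized counts), within 0.001 of a read, for 100% of values. No library was a duplicate of another of its genotype, since chi-square over its degrees of freedom was 15.5 to 44.5 within genotypes. Libraries of unlike genotype were not compared in this way. Counting error limits low genes: 3 reads are 2.83 to 3.22 normalized counts.

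As the values are normalized, limma 3.58.1 (R 4.3.3) with trend was fitted to log2(value + 1), with batch plus genotype, on genes with a value of at least 10 in at least 3 samples (17278 genes, 3 residual and 8.90 prior degrees of freedom). The plan foresaw edgeR had the table held counts. On the recovered whole reads, edgeR 4.0.16 quasi-likelihood called 2365 genes higher and 2413 lower, and DESeq2 1.42.0 called 2513 higher and 2343 lower, against 2469 and 2345 by limma. The scripts were tested on simulated data. Ratios within a sample were compared by exact permutation (scipy 1.17.1). Lengths and spans are from GENCODE, promoter windows from RefSeq GRCm38.p6.

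Members and lists were chosen with earlier results of these data known. Genes named are the 7 members, the rest of the family, the targeted genes, per list the 3 genes with the smallest and 1 with the largest adjusted p, and the 3 genes nearest in pattern to each member (mean at least 100). For lists of microglia, endothelial, oligodendrocyte and ependymal markers counts and sums are given alone. Genes singled out beyond the rule are said to be so. Alternatives were other scalings, pseudocount 5, no filter, no batch term, a replicate block, November samples alone, limma without trend, the count tests and leaving out each sample.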

Additional observations from a re-analysis of the deposited data

How the results depend on the processing

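The changes of E2f1, E2f2, E2f7 and E2f8 passed the threshold under all 17 alternatives. E2f3 passed under 7 of 17, E2f6 under 14 and Tfdp1 under 16. E2f3 missed it at 0.51 with upper quartile scaling (adjusted p = 0.053), no filter (0.077), no batch term (0.085), the replicate block (0.067) and limma without trend (0.13), and at 0.50 with edgeR (0.057). With 1 sample left out its change was 0.34 to 0.68, and that of E2f6 was 0.35 to 0.64. Limma without trend also ended the calls of E2f6 (0.51, adjusted p = 0.12) and Tfdp1 (0.67, adjusted p = 0.058), so that 4 members were called, and it left 1484 lower genes in all; the cause was not tested. Deviations of same-numbered samples from their group means correlated at 0.23, -0.11 and 0.14, against -0.28 to 0.18 for samples of unlike number. With batch left in and so few samples, these values cannot settle whether the numbers pair them. Blocking by number gave 2147 higher and 1922 lower genes.

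Values that changed sign were near 0 or not called. They were Rbl2 (0.0156 in November, -0.25 to 0.0156 with 1 sample left out), Trp73 (-0.57 in November, -0.57 to 0.61 with 1 sample left out), Mga (-0.0862 to 0.16 with 1 sample left out), and Slc1a3 (-0.00731 with equal totals, -0.0327 with edgeR, -0.0117 with DESeq2, -0.22 to 0.16 with 1 sample left out). Among ratios they were E2f1 over E2f2 (-0.0949 in November, -0.0204 to 0.15 with 1 sample left out), Tfdp1 over E2f3 (-0.025 in November, -0.0588 to 0.43), E2f3 over E2f6 (0.13 in November, -0.16 to 0.12), and, over the proliferation markers, E2f1 (-0.0952 in November, -0.0591 to 0.13) and E2f2 (-0.0512 to 0.0404). Counts over lists moved by over 1.5 times in 39 of 442 cases, mostly for microglia and ependymal markers.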

Other observations

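The ratio of the dimer partners to the E2F genes that need them overlapped between the genotypes. The summed level of Tfdp1 and Tfdp2 over that of E2f1 to E2f6 was 0.581, 0.606 and 0.578 in TKO, and 0.592, 0.586 and 0.689 in THC, per kb of exon, with overlapping groups and no test. Of the summed level of the 8 E2f genes, E2f1 alone made up 23.3 to 24.0% in TKO and 12.05 to 19.9% in THC, and E2f5 alone 26.1 to 28.2% in TKO and 30.5 to 33.5% in THC. A lower share is not a lower level, as E2f5 itself rose in TKO (log2 change 0.64).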
